A study of Rattus with 8 samples.

Results

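Mature miRNAs of striated muscle were followed in the rat hippocampus 24 h after cardiopulmonary bypass with deep hypothermic circulatory arrest (CPB/DHCA). The set comprised every listed name of miR-1, miR-133a, miR-133b, miR-133c, miR-206, miR-208a, miR-208b and miR-499, on either arm, with each mature name used once. This rule found 7 of the 615 mature miRNAs, namely rno-miR-1-3p, rno-miR-133a-3p, rno-miR-133a-5p, rno-miR-133b-3p, rno-miR-206-3p, rno-miR-499-3p and rno-miR-499-5p (the species prefix is left out below). No listed name was a miR-133c, miR-208a or miR-208b. The CPB/DHCA group held 4 male Sprague-Dawley rats aged 9 weeks, which were anaesthetized with sevoflurane, cooled on bypass over 30 min to a rectal target of 18 °C and held without circulation for 30 min before rewarming. The control group held 4 rats of the same strain, sex and age with the same anaesthesia, intubation and vascular cannulation, but without bypass or arrest. All of the rats received acetaminophen after surgery. Bypass, cooling and arrest came together in 1 group and cannot be told apart.

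These miRNAs are known as myomiRs, since heart and skeletal muscle make them at very high levels under the control of myogenic transcription factors. miR-1 and miR-206 share a seed, the stretch of bases that pairs with target mRNAs, and promote the differentiation of muscle cells, whereas miR-133 favours the proliferation of myoblasts. miR-206 is made in skeletal muscle and hardly in the heart, and miR-208a, miR-208b and miR-499 lie in introns of myosin heavy chain genes. In the RefSeq annotation of GRCr8, Mir1 and Mir133a1 both fell within the span of Mib1, Mir206 and Mir133b were each other's nearest miRNA gene, and Mir499a fell within Myh7b. The files were made on rn6, so no positions are given.

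The mature sequences are shown because the names differ by very few bases and the counts depend on telling them apart. They are given as the deposited table lists them, with the seed (bases 2 to 8) in capitals.
miR-1-3p: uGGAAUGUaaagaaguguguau
miR-1b: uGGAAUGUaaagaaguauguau
miR-206-3p: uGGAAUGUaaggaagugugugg
miR-133a-3p: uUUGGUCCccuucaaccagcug
miR-133b-3p: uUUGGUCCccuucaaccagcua
miR-499-5p: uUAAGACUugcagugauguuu
miR-1-3p, miR-1b and miR-206-3p were the 3 listed names with the seed GGAAUGU. miR-1b fell outside the set by its name and is included here because miR-1-3p differs from it by a single substitution, G17A, counted from the 5′ end with the base of miR-1-3p first. As background, the letters listed as miR-1b for the rat are those known as miR-1 in mouse and human. From miR-1-3p to miR-206-3p there were 3 substitutions, A11G, A21G and U22G. miR-133b-3p differed from miR-133a-3p by G22A alone. The authors' alignment allowed 1 mismatch, so tags of miR-1-3p and miR-1b, or of miR-133a-3p and miR-133b-3p, could have been exchanged, and how many were was not tested. The seed of miR-499-5p, UAAGACU, occurred in no other listed name.

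Each library yielded 508574 to 672378 miRNA tags in the CPB/DHCA group and 620133 to 772840 in the control group, so that 1 tag was worth 1.29 to 1.97 CPM (counts scaled to a common library size) before TMM factors, which correct for differences in composition, were applied. The smallest listed count was 2, and an empty cell, which stands for 0 or 1 tag, was taken as 0. The neuronal miRNAs fixed as a check of the tissue (miR-9a-5p, miR-124-3p, miR-128-3p and miR-138-5p) summed to 182793 to 369626 CPM in the CPB/DHCA group and 232385 to 335183 CPM in the control group. Against these, the 7 muscle names together had 711 to 1005 CPM in the CPB/DHCA group and 722 to 1057 CPM in the control group. miR-499-5p made up 87.5% to 91.2% of their tags in CPB/DHCA libraries and 68.7% to 88.6% in control libraries. The set was thus largely 1 miRNA, and the names miR-1-3p, miR-133a-3p and miR-206-3p held few tags. miR-1b, which lies outside the set, is described with miR-1-3p below.

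Among these miRNAs, miR-1-3p, miR-206-3p and miR-133a-3p averaged lower after CPB/DHCA, and miR-499-5p did not. miR-1-3p was the only member past the thresholds of the study, a fold change of at least 1.5 with an unadjusted p of at most 0.05. It averaged 21.0 ± 11.4 CPM (SD, n = 4) after CPB/DHCA and 42.8 ± 12.1 CPM (SD, n = 4) in the control group. Of 467 miRNAs kept by a filter on low counts, 5 were members, and 1 of the 5 passed downwards, against 3.43% of all the miRNAs tested, and none upwards, against 3.85% (7.28% in either direction). No member passed at an adjusted p under 0.05, as 0.214% of the miRNAs tested did, and no tested member had groups that did not overlap, as 4.71% of the miRNAs did. The 5 included miR-133a-5p, which reached the filter mainly through control libraries. Of the other 4, 3 had a log2 fold change below 0, against 59.5% of the miRNAs tested, and their median was -0.99, against -0.05 for all. Fewer cells that hold these miRNAs and less of them per cell cannot be told apart in whole tissue.

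**Figure D1:**
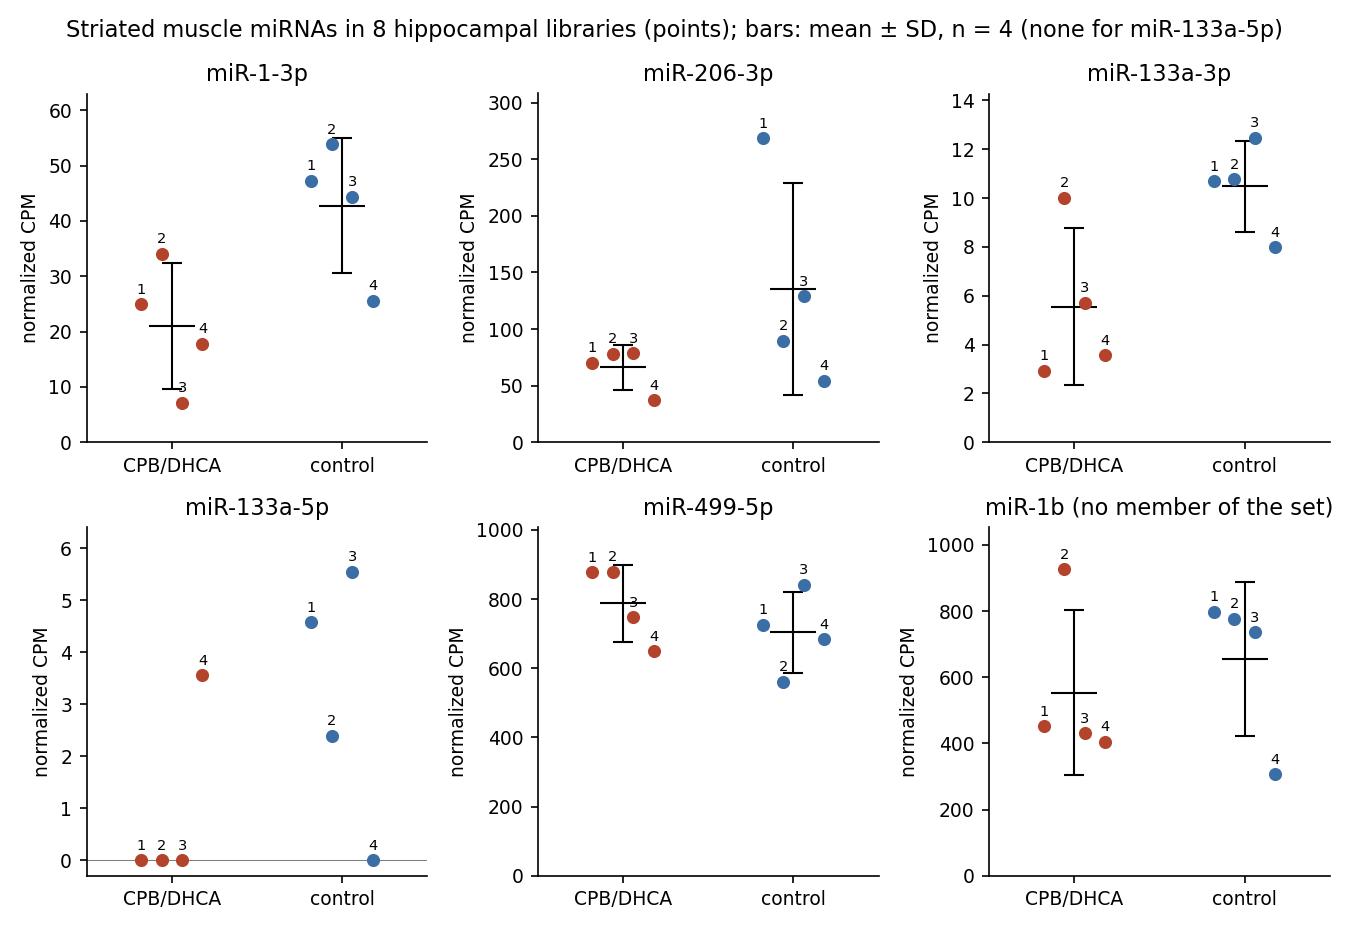
Normalized CPM of the 5 tested members and of miR-1b (vertical axes, linear) in the CPB/DHCA group (red, left) and the control group (blue, right). Each point is a library with its replicate number. Bars give the mean and SD of 4 libraries, with none drawn for miR-133a-5p. In every panel the groups overlap, and control 4 is the lowest control library in all panels but that of miR-499-5p.

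miR-1-3p, which in the rat table is the name with G at base 17 and not the letters of mouse and human miR-1, was counted 17, 17, 5 and 10 times in CPB/DHCA 1 to 4, against 31, 45, 32 and 16 times in control 1 to 4. On the normalized scale these were 24.9, 34.0, 7.14 and 17.8 CPM in the CPB/DHCA group and 47.3, 53.9, 44.4 and 25.6 CPM in the control group. 3 of the 4 CPB/DHCA libraries lay below every control library, and CPB/DHCA 2 lay above control 4. CPB/DHCA 1, with 17 tags, lay below control 4, with 16 tags, only after scaling. The fitted log2 fold change was -1.05 (standard error 0.42, 95% interval -1.99 to -0.12, edgeR p = 0.0312, adjusted p = 0.53, exact permutation p = 0.057). The permutation test, two-sided here and below, ran over all 70 ways to divide the libraries and can reach 0.029 at the least. The summed tags, 49 in the CPB/DHCA group and 124 in the control group, gave a rate ratio of 0.46 (exact 95% interval 0.324 to 0.645, counting error only). It ranked 26 of 467 by p, and 268 of 615 by mean level.

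The call of miR-1-3p ended without CPB/DHCA 3, CPB/DHCA 4, control 1, control 2 or control 3, with log2 fold changes from -1.01 to -0.75 and unadjusted edgeR p from 0.055 to 0.074. Without CPB/DHCA 1, CPB/DHCA 2 or control 4 it stayed past the thresholds, at -1.32 to -1.14. CPB/DHCA 3, with 5 tags, was the lowest library of all, and its removal moved the value most.

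miR-1b, which differs from miR-1-3p by G17A, held most of the tags with this seed. It had 308, 463, 302 and 228 tags in CPB/DHCA 1 to 4, against 523, 649, 531 and 192 in control 1 to 4. The means were 554 ± 250 CPM (SD, n = 4) after CPB/DHCA and 654 ± 233 CPM (SD, n = 4) in the control group. CPB/DHCA 2 was the highest of all the libraries and control 4 the lowest, so that each stood among the values of the other group. Its log2 fold change was -0.24 (standard error 0.36, 95% interval -1.05 to 0.56, edgeR p = 0.52, exact permutation p = 0.54), and it did not pass. With both names counted as 1 feature, a setting chosen after seeing the data, the log2 fold change was -0.28, and no member passed, where 3.22% of the miRNAs tested passed downwards.

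The tags of miR-1-3p as a share of those of both names were 5.23%, 3.54%, 1.63% and 4.20% in CPB/DHCA 1 to 4, against 5.6%, 6.48%, 5.68% and 7.69% in control 1 to 4. All of the CPB/DHCA libraries had a lower share than any control library. By counting error alone, the exact 95% intervals ran from 0.531% to 3.76% in CPB/DHCA 3 and from 3.08% to 8.24% in CPB/DHCA 1. Those of the control libraries ran from 3.83% at the lowest to 12.2% at the highest, and only that of CPB/DHCA 3 lay wholly below them. The log2 ratio of miR-1-3p to miR-1b was 0.91 lower in the CPB/DHCA group (-4.77 ± 0.71, SD, n = 4) than in the control group (-3.87 ± 0.24, SD, n = 4). This ratio was chosen after its values were seen, so it is given as a description with no test, and it does not depend on how libraries are scaled. With each library left out in turn the difference lay between -1.12 and -0.57, the smallest without CPB/DHCA 3.

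**Figure D2:**
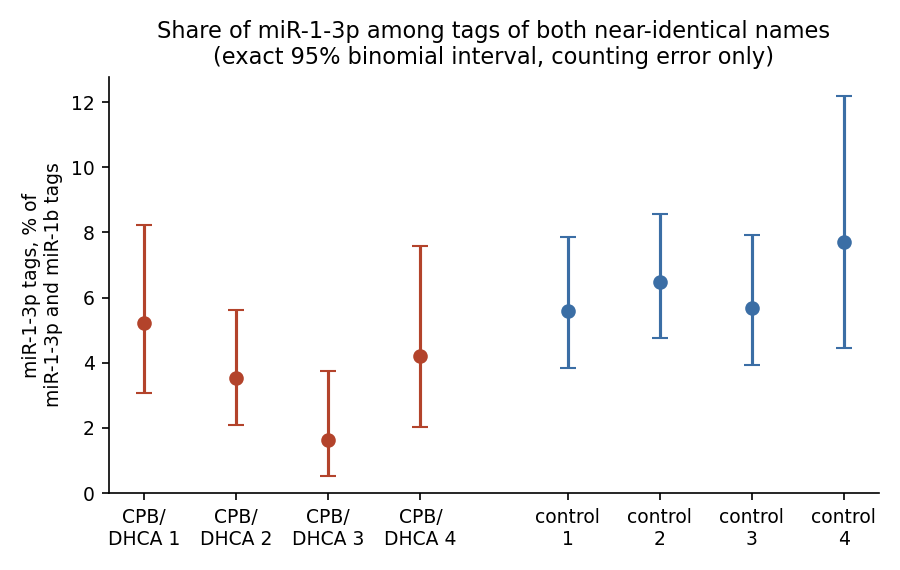
Tags of miR-1-3p as a percent of the tags of miR-1-3p and miR-1b (vertical axis, from 0) in each library, CPB/DHCA in red on the left and control in blue on the right. Bars are exact 95% binomial intervals, which cover counting error only. Shares run from 1.63% to 5.23% in the CPB/DHCA group and from 5.6% to 7.69% in the control group.

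Over all names with the seed GGAAUGU, miR-1b held 82.6% to 89.2% of the tags in CPB/DHCA libraries and 71.6% to 84.4% in control libraries. The names with this seed summed to 641 ± 268 CPM (SD, n = 4) after CPB/DHCA, against 833 ± 312 CPM (SD, n = 4) in the control group. The libraries ranged from 460 to 1039 CPM in the CPB/DHCA group and from 387 to 1114 CPM in the control group, which overlapped over most of their range.

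miR-206-3p, the skeletal muscle member of the seed family, had a log2 fold change close to that of miR-1-3p, but its groups overlapped more. Its tags numbered 48, 39, 55 and 21 in CPB/DHCA 1 to 4, against 176, 75, 93 and 34 in control 1 to 4. The normalized levels were 70.3, 78.1, 78.5 and 37.3 CPM in the CPB/DHCA group and 269, 89.8, 129 and 54.3 CPM in the control group. 3 control libraries lay above every CPB/DHCA library, whereas control 4 lay below all but CPB/DHCA 4. The fitted log2 fold change was -1.03 (standard error 0.46, 95% interval -2.06 to 0.00, edgeR p = 0.0501, adjusted p = 0.56), just outside the thresholds, and the exact permutation test gave p = 0.2. Control 1 alone held 176 of the 378 control tags. Without it the log2 fold change was -0.44, whereas without control 4 it was -1.29 and without control 2 it was -1.15, both past the thresholds. Of all the miRNAs tested, 4.19% passed downwards without control 4 and 2.25% without control 2.

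miR-133a-3p, which is cut from a transcript shared with miR-1 in mouse, was rarer still. It had 2, 5, 4 and 2 tags in CPB/DHCA 1 to 4, against 7, 9, 9 and 5 in control 1 to 4. The levels were 2.93, 10.0, 5.71 and 3.55 CPM in the CPB/DHCA group and 10.7, 10.8, 12.5 and 7.99 CPM in the control group. CPB/DHCA 2 lay above control 4, and the other CPB/DHCA libraries lay below every control library. The log2 fold change was -0.94 (standard error 0.45, 95% interval -1.94 to 0.06, edgeR p = 0.0626, adjusted p = 0.57), and the exact permutation test gave p = 0.057. By its 13 tags in the CPB/DHCA group and 30 in the control group the rate ratio was 0.505 (exact 95% interval 0.242 to 0.997, counting error only). miR-133a-3p had no empty cell itself. With 1 tag in every empty cell of the table, it passed at a log2 fold change of -0.92. It also passed without CPB/DHCA 2, at -1.27. Of all the miRNAs tested, 3.85% and 2.63% passed downwards in these fits.

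The other arms and miR-133b were at the limit of what this depth can show. miR-133a-5p, the arm that is usually discarded, had 2 tags in CPB/DHCA 4 and none listed in CPB/DHCA 1 to 3, against 3, 2 and 4 in control 1 to 3 and none listed in control 4. It was kept by the filter through the control libraries, and its log2 fold change of -1.72 (95% interval -4.44 to 0.99, adjusted p = 0.83) depends on reading empty cells as 0. With 1 tag in each empty cell it was -0.71. miR-133b-3p had 2 tags in CPB/DHCA 2 and was listed in no control library, and miR-499-3p had 2 tags in CPB/DHCA 3 against 3 in control 2. Neither was tested, and at these counts no difference was detectable.

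miR-499-5p, which is encoded in the slow myosin gene Myh7b and represses fast-fibre genes in muscle, was the one abundant member, ranking 90 of 615 by mean level. It had 599, 439, 523 and 365 tags in CPB/DHCA 1 to 4, against 476, 469, 607 and 428 in control 1 to 4. The levels were 877, 879, 747 and 649 CPM in the CPB/DHCA group and 726, 561, 842 and 684 CPM in the control group. The groups overlapped in part. CPB/DHCA 1 and CPB/DHCA 2 lay above the highest control library, and control 2 lay below every CPB/DHCA library. The means were 788 ± 112 CPM (SD, n = 4) after CPB/DHCA and 703 ± 116 CPM (SD, n = 4) in control rats. The log2 fold change was 0.16 (standard error 0.18, 95% interval -0.24 to 0.57, edgeR p = 0.38, adjusted p = 0.95, exact permutation p = 0.34). This interval leaves out a fall as large as the fitted ones of miR-1-3p, miR-206-3p and miR-133a-3p. The intervals of those members reached up to -0.12, 0.00 and 0.06 and overlapped it. Overlap of intervals does not test whether members differ, and ratios to miR-1-3p within a library are given below.

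**Figure D3:**
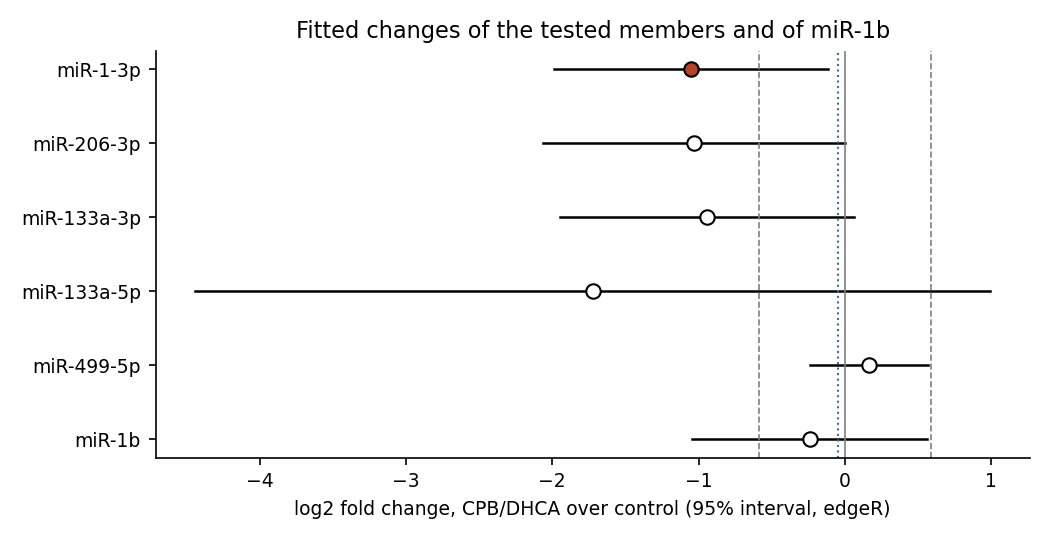
Log2 fold change of CPB/DHCA over control (horizontal axis) with its 95% interval for the 5 tested members and miR-1b. The filled point, miR-1-3p at -1.05, is past a fold of 1.5 (dashed lines) with an unadjusted p of at most 0.05. The dotted line at -0.05 is the median of the 467 miRNAs tested.

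The spread between the libraries of a group, each of a different rat, is given beside the spread that counting error alone would make. miR-499-5p had a coefficient of variation of 14.2% in the CPB/DHCA group and 16.5% in the control group, where counting error alone gives 4.56% and 4.49%. For miR-206-3p it was 29.6% in the CPB/DHCA group and 69.3% in the control group (counting error 15.7% and 10.3%), and for miR-1-3p 54.2% in the CPB/DHCA group and 28.4% in the control group (counting error 28.6% and 18.0%). In miR-133a-3p it was 57.7% in the CPB/DHCA group and 17.7% in the control group, against 55.5% and 36.5% by counting error. With 4 libraries a group these coefficients are imprecise, and differences in spread between the members were not tested.

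Ratios of members within a library, which are free of scaling, were used to ask whether one member changed more than another. miR-133a-3p per miR-1-3p was 0.118, 0.294, 0.8 and 0.2 in CPB/DHCA 1 to 4, against 0.226, 0.2, 0.281 and 0.312 in control 1 to 4. Its mean log2 differed by 0.21 between the CPB/DHCA and control groups (exact permutation p = 0.77). miR-206-3p per miR-1-3p was 2.82, 2.29, 11 and 2.10 in CPB/DHCA 1 to 4, against 5.68, 1.67, 2.91 and 2.12 in control 1 to 4. Its mean log2 differed by 0.30 (exact permutation p = 0.66, and p = 0.77 for both ratios when adjusted over the 3 ratios compared). Both directions rested on CPB/DHCA 3, where miR-1-3p had 5 tags, and turned to -0.26 and -0.23 without it.

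miR-499-5p per miR-1-3p was 35.2, 25.8, 105 and 36.5 in CPB/DHCA 1 to 4, against 15.4, 10.4, 19.0 and 26.8 in control 1 to 4. Only CPB/DHCA 2 fell below the highest control library. The mean log2 of this ratio was 1.31 higher in the CPB/DHCA group (5.36 ± 0.84, SD, n = 4) than in the control group (4.05 ± 0.56, SD, n = 4), with an exact permutation p = 0.057 and p = 0.17 when adjusted over the 3 ratios. A change of miR-499-5p that differs from that of miR-1-3p was therefore not shown at the threshold of 0.05.

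**Figure D4:**
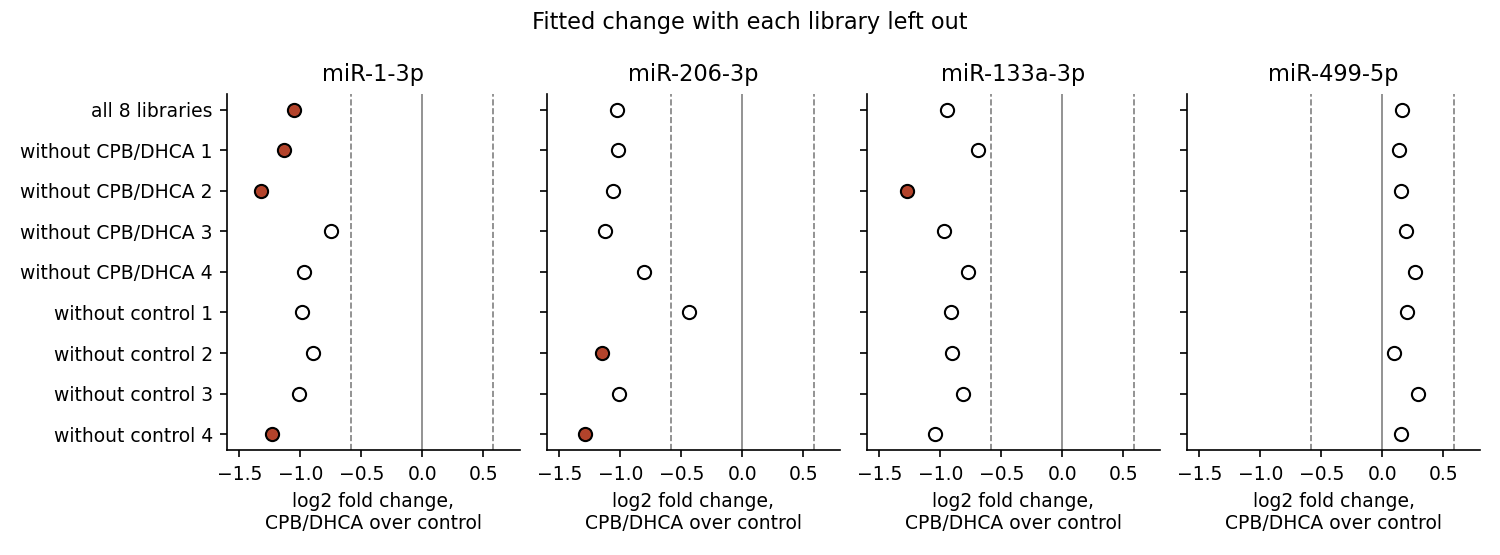
Log2 fold change of CPB/DHCA over control (horizontal axes) for miR-1-3p, miR-206-3p, miR-133a-3p and miR-499-5p with all 8 libraries and with each library left out. Filled points are past a fold of 1.5 (dashed lines) with an unadjusted p of at most 0.05. miR-1-3p keeps its call in 3 of these 8 fits, and miR-206-3p moves to -0.44 without control 1.

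The libraries numbered 4 were low in both groups. Control 4 had the lowest level of miR-1-3p, miR-1b, miR-206-3p and miR-133a-3p in the control group, and CPB/DHCA 4 the lowest of miR-1b, miR-206-3p and miR-499-5p in the CPB/DHCA group. With both left out, a setting chosen after seeing the data, miR-1-3p passed at a log2 fold change of -1.12 and miR-206-3p at -1.04, so that 2 members passed, where 4.59% of the miRNAs tested passed downwards.

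miRNAs whose levels over the 8 libraries were most like those of each member were sought by the root mean square difference of centred log2(CPM + 1). As a description, the nearest to miR-1-3p were a predicted miRNA of chromosome 3 (0.398), miR-24-2-5p (0.415) and miR-145-5p (0.499), of 426 candidates with a median of 0.908. miR-145-5p is made in smooth muscle and averaged 334 ± 77.8 CPM (SD, n = 4) after CPB/DHCA and 548 ± 270 CPM (SD, n = 4) in control rats. miR-24-2-5p was also the nearest to miR-206-3p (0.524), before miR-30d-3p (0.568) and miR-323-5p (0.580), of 348 candidates with a median of 0.839. It averaged 6.66 CPM in the CPB/DHCA group and 13.6 CPM in the control group.

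These were picked as the closest of many candidates, and no member was among the 3 nearest to another. Of 426 candidates, miR-133a-3p ranked 26 (0.665) and miR-206-3p 118 (0.807) in likeness to miR-1-3p, against a median of 0.908. miR-1b ranked 16 for miR-1-3p, 8 for miR-133a-3p and 5 for miR-206-3p. miR-133a-3p had at most 9 tags a library, so counting error enters its likeness. Nearest to miR-133a-3p were miR-323-5p (0.417), miR-344b-3p (0.417) and miR-146a-5p (0.440), of 466 candidates with a median of 0.750. For miR-133a-5p, with so few tags, the nearest were miR-136-5p (0.810), a predicted miRNA of chromosome 17 (0.817) and miR-503-5p (0.824), against a median of 1.25. miR-499-5p was most like let-7a-1-3p and let-7c-2-3p (0.093), which are listed with identical counts, and a predicted miRNA of chromosome 19 (0.125), of 212 candidates with a median of 0.349.

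miRNAs of other tissues were set beside the muscle names. Of 6 tested miRNAs of smooth muscle and fibroblasts, 1 passed downwards, miR-199a-5p, against 3.43% of all the miRNAs tested. It averaged 45.7 ± 33.5 CPM (SD, n = 4) after CPB/DHCA and 117 ± 38.0 CPM (SD, n = 4) in control rats. Its log2 fold change was -1.38 (edgeR adjusted p = 0.53). Of the 6, 5 had a log2 fold change below 0, against 59.5% of all the miRNAs tested, with a median of -0.56 against -0.05. The most abundant of them, miR-143-3p, had a log2 fold change of -0.46 and did not pass. The 7 listed names of this list, with miR-214-3p that was not tested, summed to 2435 to 3931 CPM in the CPB/DHCA group. In the control group they summed to 2448 to 7544 CPM, and miR-214-5p of this list was not among the names listed. The part of these cells in the values of miR-1-3p and miR-206-3p was not tested.

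Of 5 miRNAs of the choroid plexus none passed, against 7.28% of all the miRNAs tested in either direction. Of the 5, 4 had a log2 fold change below 0, against 59.5% of all. The sum of the 5 was 1178 to 3658 CPM in the CPB/DHCA group and 1660 to 4126 CPM in the control group. The most abundant, miR-34c-5p, had a log2 fold change of -0.41. None of 2 endothelial, 4 leukocyte and 4 neuronal miRNAs passed, and the medians of these lists were 0.02, -0.19 and -0.10. Their most abundant members, miR-126a-5p, miR-150-5p and miR-9a-5p, had log2 fold changes of -0.18, -0.01 and -0.02. Of 4 erythrocyte miRNAs 3 passed upwards, against 3.85% of all the miRNAs tested, and these were miR-144-3p, miR-144-5p and miR-451-5p, with means of 6.42 to 33.6 CPM after CPB/DHCA and 0.693 to 2.72 CPM in control rats. In control rats miR-144-5p averaged 0.693 ± 1.39 CPM and miR-451-5p 1.14 ± 2.29 CPM (SD, n = 4), with empty cells read as 0. Both reached the filter mainly through CPB/DHCA libraries, so the count of 3 is a description only. The most abundant of the list, miR-486, averaged 103 ± 26.6 CPM (SD, n = 4) after CPB/DHCA and 113 ± 18.9 CPM (SD, n = 4) in control rats, a log2 fold change of -0.13, and did not pass.

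Of 4 miRNAs that muscle expresses together with many other tissues, none passed the thresholds, against 7.28% of all the miRNAs tested in either direction. Of these, 3 had a log2 fold change below 0, against 59.5% of all the miRNAs tested, with a median of -0.10 against -0.05. The most abundant, miR-27b-3p, had a log2 fold change of 0.23, and the sum of the 4 was 24024 to 31790 CPM in the CPB/DHCA group and 22845 to 24714 CPM in the control group. miR-378a-3p, which lies in the metabolic gene Ppargc1b and is singled out after its values were seen, averaged 404 ± 44.0 CPM (SD, n = 4) after CPB/DHCA and 526 ± 32.3 CPM (SD, n = 4) in control rats. Its log2 fold change of -0.38 was under the fold threshold (edgeR adjusted p = 0.53).

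**Figure D5:**
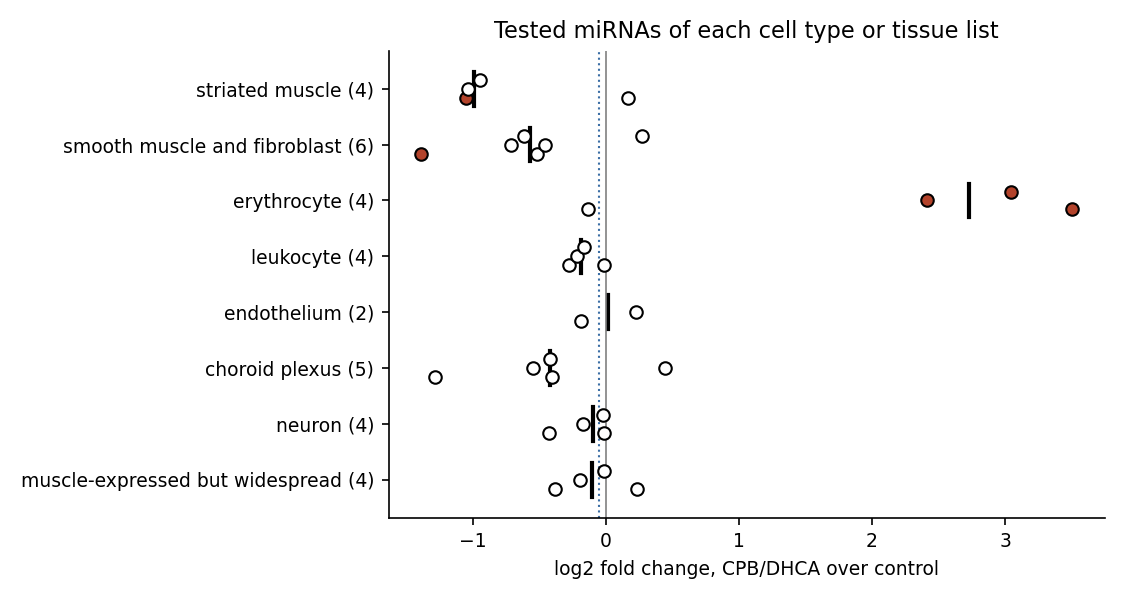
Log2 fold change of CPB/DHCA over control (horizontal axis) for the tested miRNAs of each list, with the number tested in brackets. Points are miRNAs, offset vertically for legibility and filled where past the thresholds, black bars are list medians, and the dotted line at -0.05 is the median of all 467. The 4 striated muscle miRNAs of this list lie at -1.05, -1.03, -0.94 and 0.16.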

How the data were processed

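Hippocampal total RNA of 8 rats was made into small RNA libraries. Per the labels and the study's methods, the authors trimmed adapters with cutadapt 1.9.3, kept reads of at least 15 nt, aligned them with Novoalign 3.02.12, allowing 1 mismatch, to precursors of miRBase and to precursors predicted with miRDeep2 2.0.0.5, and counted tags per mature miRNA (rn6). The deposited counts are raw tag counts. The deposited score is the authors' TPM, rounded to whole numbers, and was used only in the limma alternatives.

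Counts were fitted with edgeR 4.0.16 in R 4.3.3 (TMM, glmQLFit, glmQLFTest) over 467 miRNAs (10 or more tags over all libraries, and a listed count in 4 or more of them), and p was adjusted by Benjamini-Hochberg over all of them. Intervals of log2 fold changes come from the same fit. Exact permutation tests used log2(CPM + 1), or log2 ratios with 0.5 tags added to both sides. p-values set the difference between the groups against the spread between these libraries. Only the edgeR fit was tried on simulated counts, whose levels and spread were taken from these data. Members, lists and tests were chosen with earlier results of these data known. The text names every member, the 3 miRNAs most like each tested member among those of at least 0.1 of its mean CPM, and, of each list, those that passed or were the most abundant. miR-1b was added, and miR-378a-3p named outside this rule, after their values were seen. Alternatives used DESeq2 1.42.0 and limma 3.58.1, other scalings and filters, and each library left out. Python 3.11.15 with scipy 1.17.1 was used for the rest.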

Additional observations from a re-analysis of the deposited data

Results flagged for a closer look

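Among 20 groups of 4 values that were checked for a library far from the rest (chance marks about 1 in 20), 3 had one. In miR-1b, CPB/DHCA 2 stood at 927 CPM, above the other CPB/DHCA libraries at 405 to 451 CPM, and control 4 stood at 307 CPM, below the other control libraries at 736 to 798 CPM. In miR-133a-5p, CPB/DHCA 4 had 3.55 CPM, which is 2 tags, and the other CPB/DHCA libraries had none listed.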

How the results depend on the processing

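miR-499-5p stayed above 0 and outside the thresholds under all 25 alternatives, and miR-1b stayed below 0 and outside them under all 24 that hold it as a feature of its own. miR-1-3p kept its call in 15 of 17 alternatives that leave out no single library. It lost it with limma on log2(TPM + 10) (-0.46, a scale that shrinks low miRNAs) and when counted with miR-1b (-0.28). miR-206-3p passed without a filter (-1.03), with at least 10 counts in each of 4 libraries (-0.95), with DESeq2 (-0.97), upper quartile factors (-1.04), the robust fit (-1.03), edgeR's exact test (-1.03) and without both libraries numbered 4 (-1.04), and miR-133a-3p passed with empty cells at 1 tag (-0.92). The number of members past the thresholds was therefore 2 under each of these, where 2.78% to 4.59% of all miRNAs tested passed downwards, and 0 under limma on log2(TPM + 10) and with miR-1-3p and miR-1b as 1 feature. The number of all miRNAs past the thresholds, 34, was 12 with limma on log2(TPM + 10) and 19 with miRBase names only, where 387 were tested. The cause of the other changes was not tested. miR-133a-3p and miR-133a-5p could not be fitted with at least 10 counts in each of 4 libraries.

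With each library left out in turn, log2 fold changes lay between -1.32 and -0.75 for miR-1-3p, -1.29 and -0.44 for miR-206-3p, -1.27 and -0.69 for miR-133a-3p and 0.10 and 0.29 for miR-499-5p. The number of members past the thresholds lay between 0 and 2, and that of all miRNAs between 17 (without control 3) and 40 (without control 4), with 20 without control 1 and also without control 2. Of the miRNAs tested in these fits, 0.883% (without control 1) to 4.19% (without control 4) passed downwards. The log2 ratio to miR-1-3p lay between -0.26 and 0.58 for miR-133a-3p, -0.23 and 0.65 for miR-206-3p and 0.90 and 1.55 for miR-499-5p.

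Same-numbered libraries deviated together unevenly (correlations 0.195, -0.077, -0.061 and 0.501), so the numbers were not taken as pairs. With the replicate number as a block, miR-206-3p passed at -0.86, 2 members passed and 31 of all miRNAs passed. In this fit 2.78% of the miRNAs tested passed downwards. Depth limits miR-133a-3p, miR-133a-5p, miR-133b-3p and miR-499-3p, which had at most 9 tags a library.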
